A study of Mus musculus with 4 samples.

Results

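The genes described here are the protease-activated receptors *F2rl1* and *F2r*, the cell-surface serine proteases *St14* and *Prss8* and the protease inhibitors *Spint1* and *Spint2*. They were taken by symbol, and all 6 were among the 31055 genes of the count tables. Their levels were followed across the cell classes of 4 scRNA-seq libraries from the caudal part of E8.5 mouse embryos. The 2 WT libraries came from 1 pool of 5 embryos, and the 2 *Grhl3*-null libraries from 1 pool of 3 embryos that lacked functional *Grhl3* in every cell. All embryos came from intercrosses of *Grhl3*+/- mice on a C57BL/6 background. No agent was given to either group. *Grhl3* encodes a transcription factor that is required for closure of the spinal neural tube. The libraries of a genotype share 1 pool, so each p-value sets 1 pool against the other, and differences among embryos do not enter it.

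Protease-activated receptors are G protein-coupled receptors that a protease switches on by cutting their extracellular end. *F2r* encodes PAR1, the main thrombin receptor, and *F2rl1* encodes PAR2, which answers to trypsin-like proteases at the cell surface. *St14* encodes matriptase, a transmembrane serine protease of epithelia, and *Prss8* encodes prostasin, a membrane-anchored serine protease that acts with matriptase. *Spint1* and *Spint2* encode HAI-1 and HAI-2, Kunitz-type inhibitors that hold both proteases in check. Mouse embryos that lack both receptors, or that lack *Spint2*, can fail to close the neural tube.

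On mm10, *F2rl1* (ENSMUSG00000021678) lies on chromosome 13 at 95511732 to 95525227 and *F2r* (ENSMUSG00000048376) at 95601803 to 95618487, both on the minus strand and 76575 bases apart. *St14* (ENSMUSG00000031995) lies on chromosome 9 at 31089402 to 31131853 on the minus strand. *Prss8* (ENSMUSG00000030800) lies on chromosome 7 at 127925716 to 127930104 on the minus strand and overlaps *Kat8*, which is annotated on the plus strand. *Spint1* (ENSMUSG00000027315) lies on chromosome 2 at 119237362 to 119249527 on the plus strand, and *Spint2* (ENSMUSG00000074227) on chromosome 7 at 29256323 to 29281912 on the minus strand.

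Promoters of 3 of the 6 genes were in the RefSeq promoter table for GRCm38.p6 (the assembly of mm10), which runs from 250 bases before to 50 bases after each start. All 3 are shown. In *Grhl3*-null cells of the surface ectoderm/border-like class described below, *Spint1* and *Spint2* fell and *F2r* did not pass the test. Grainyhead-like factors are known to bind an AACCGGTT motif. The cores AACCGG and ACCGGT were searched on both strands, and they overlap in AACCGGTT. Each sequence is written from the gene's own strand, and the capitals mark a match to either core.
Spint1, chr2:119237110-119237409, plus strand: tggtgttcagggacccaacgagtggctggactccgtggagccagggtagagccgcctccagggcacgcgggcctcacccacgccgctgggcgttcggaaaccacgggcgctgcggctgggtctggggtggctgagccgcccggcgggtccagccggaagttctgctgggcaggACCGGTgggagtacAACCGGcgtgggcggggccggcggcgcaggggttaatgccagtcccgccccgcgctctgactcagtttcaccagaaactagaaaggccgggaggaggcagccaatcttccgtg
Spint2, chr7:29281928-29282227, minus strand: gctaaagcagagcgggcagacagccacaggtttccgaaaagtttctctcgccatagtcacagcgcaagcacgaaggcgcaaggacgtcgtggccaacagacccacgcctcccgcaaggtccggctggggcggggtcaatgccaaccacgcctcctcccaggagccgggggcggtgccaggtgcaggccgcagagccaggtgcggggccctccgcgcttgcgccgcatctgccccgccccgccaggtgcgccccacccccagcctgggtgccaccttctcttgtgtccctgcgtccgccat
F2r, chr13:95618417-95618716, minus strand: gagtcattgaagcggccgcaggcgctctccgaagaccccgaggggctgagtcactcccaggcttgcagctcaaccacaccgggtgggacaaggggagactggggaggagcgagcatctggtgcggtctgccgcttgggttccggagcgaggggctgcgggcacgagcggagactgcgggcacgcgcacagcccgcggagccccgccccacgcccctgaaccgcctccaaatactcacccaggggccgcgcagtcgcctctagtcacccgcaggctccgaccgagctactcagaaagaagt
The *Spint1* window held ACCGGT starting at -77 and AACCGG starting at -63, counted from the start of transcription. AACCGG on either strand was in 6.83% of the 32817 promoters of this length, ACCGGT in 2.33%, and the full AACCGGTT in 0.146%. The *Spint2* and *F2r* windows held none of these motifs. RefSeq starts *Spint2* upstream of the annotation used for the gene coordinates above, so that its window lies wholly outside the gene given there. A match is a description of the sequence, not a bound site.

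After filtering, 20198 of 24239 cells remained, 5459 and 5116 in WT and 4842 and 4781 in *Grhl3*-null libraries, with 209833527 to 226723903 UMIs (unique molecular identifiers, the counted RNA molecules) per library. The cells formed 17 clusters, and marker genes gave names to 14 classes, each of which is X-like rather than proven. The class with markers of surface ectoderm and of the neural plate border, called surface ectoderm/border-like below, had 247 and 220 WT and 269 and 269 *Grhl3*-null cells and 14 of its 15 markers among its leading genes. *Grhl3* itself was at 32.8 and 26.2 CPM (UMIs of the gene per 1000000 UMIs of the class) in that class in WT and at 0.37 and 0.58 CPM in *Grhl3*-null, which matches the labels. The pre-somitic-like cluster held 512 and 495 WT cells but 3 and 3 *Grhl3*-null cells, so it was not tested, and neither was the primordial germ cell-like class with 5 cells in 1 library. Of the WT pre-somitic-like cells whose sex could be called, 504 and 485 were female and 0 and 2 male. The whole WT libraries held 1259 and 1206 male cells. The part of the embryos pooled in the pre-somitic-like cell numbers was not tested. Any pair of libraries shared 5 to 7 cell barcodes, at most 0.146% of a library.

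In WT, *F2rl1* was highest in the surface ectoderm/border-like class, at 27.0 and 24.5 CPM in the 2 libraries. The gut-like class came next, at 11.01 and 9.12 CPM. The notochord-like class (3.37 and 3.98 CPM), the primordial germ cell-like class (1.74 and 4.63 CPM) and the NMP-like class (neuromesodermal progenitors, 2.46 and 3.11 CPM) followed. The primordial germ cell-like range overlapped both of the others, while the notochord-like range lay above the NMP-like range. The surface ectoderm/border-like range lay above the gut-like range, and the gut-like range above all others. The other classes were under 1 CPM, and 52.7% of all *F2rl1* UMIs of the WT libraries came from the surface ectoderm/border-like class. Likewise, 22.1% came from the gut-like and 16.6% from the larger NMP-like class.

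*F2r*, the other receptor, had a different distribution. It was highest in the endothelium-like class, at 124.1 and 123.3 CPM, and 12 of the other 13 classes lay between 33.7 and 50.6 CPM. The surface ectoderm/border-like class was inside that band, at 39.3 and 45.4 CPM, and its range overlapped those of its neighbours in the order. Only the primordial germ cell-like class was lower, at 15.6 and 4.63 CPM from 10 UMIs in all. The endothelium-like mean was 2.53 times that of the next class.

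The proteases were highest in the epithelial classes. *St14* was at 39.2 and 41.1 CPM in the gut-like class, at 34.5 and 32.3 CPM in the surface ectoderm/border-like class and at 29.5 and 27.8 CPM in the primordial germ cell-like class, the last from 23 UMIs. These ranges did not overlap. *Prss8* was at 60.3 and 55.5 CPM in the gut-like and at 57.7 and 54.5 CPM in the surface ectoderm/border-like class, ranges that did overlap. The next class, notochord-like, had 3.62 CPM ± 0.941 (SD, n = 2 libraries), so the surface ectoderm/border-like mean was 15.5 times higher. The gut-like and surface ectoderm/border-like classes held 42.4% and 32.9% of the WT *St14* UMIs and 45.9% and 41.5% of the WT *Prss8* UMIs.

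The inhibitors had the same leading classes but reached further. *Spint1* was at 97.6 and 100.5 CPM in the surface ectoderm/border-like class, 70.3 and 67.5 CPM in the gut-like class, 40.1 and 43.4 CPM in the notochord-like class and 30.4 and 33.0 CPM in the NMP-like class, with no overlap between neighbours. *Spint2* was at 224.3 and 224.6 CPM in the gut-like, 190.8 and 192.7 CPM in the surface ectoderm/border-like and 137.1 and 162.0 CPM in the primordial germ cell-like class. In that last class *Spint1* had 3 UMIs over both WT libraries. The lowest class for *Spint2* was erythroid-like, at 4.56 and 7.05 CPM.

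**Figure D1:**
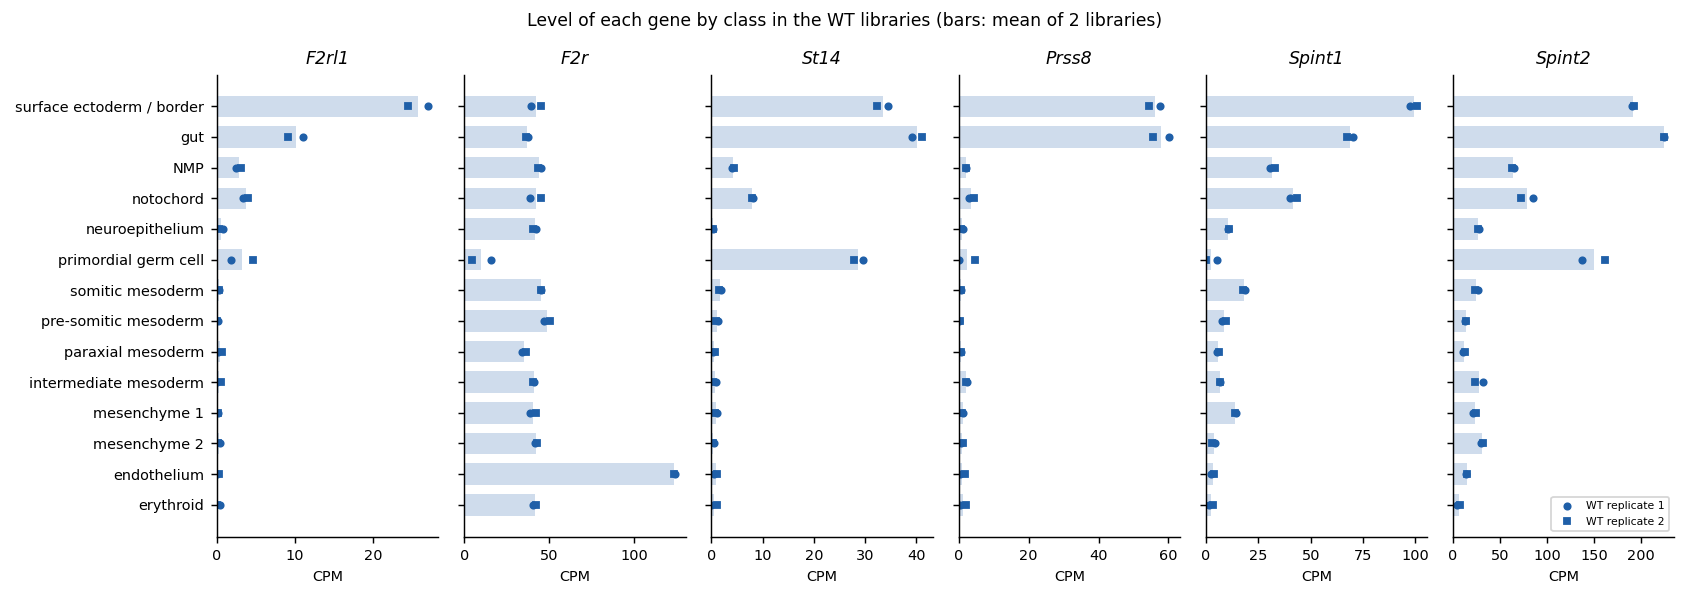
Level of each gene (CPM, x axes) in the 14 named classes of the WT libraries. Bars are means of 2 libraries and points the libraries. The surface ectoderm/border-like and gut-like classes lead for every gene except *F2r*, which is highest in the endothelium-like class at 124.1 and 123.3 CPM.

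*F2rl1* was detected in 47.0% and 42.7% of the WT surface ectoderm/border-like cells, 116 of 247 and 94 of 220, and in 36.5% and 32.2% of the WT gut-like cells. In the endothelium-like class, taken as background, a UMI was found in 0 of 152 cells, which allows a share of cells with a UMI of up to 1.97%, and in 1.33% of 150. Median depth was 41484 and 42530 UMIs in the surface ectoderm/border-like and 39779 and 35462 UMIs in the endothelium-like class. *St14* was detected in 68.4% and 69.5% and *Prss8* in 80.2% and 75.5% of the WT surface ectoderm/border-like cells, against 1.32% to 3.33% of the WT endothelium-like cells. *Spint1* was in 88.7% and 89.5% and *Spint2* in 98.0% and 97.7%. For these inhibitors the endothelium-like shares were higher, at 9.21% and 12.0% for *Spint1* and 34.2% and 31.3% for *Spint2*. With every cell thinned to 7500 UMIs, which left out no cell, the shares in the WT surface ectoderm/border-like class were 16.2% and 13.2% for *F2rl1*, 23.5% and 27.3% for *St14*, 32.4% and 25.9% for *Prss8*, 49.4% and 45.5% for *Spint1* and 72.1% and 73.2% for *Spint2*.

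*F2r* was detected in 79.4% and 82.7% of the WT surface ectoderm/border-like cells. It was detected in 73.5% and 76.0% of the WT erythroid-like cells, chosen beforehand as its background class. At 40.7 and 42.3 CPM that class lay inside the band of most classes, so it does not give a background level. After thinning, the shares of the 2 classes were 28.3% and 28.2% against 17.6% and 26.0%. In the endothelium-like class 57.2% and 56.7% of the thinned cells had a UMI.

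Within the surface ectoderm/border-like class, protease and inhibitor were detected in the same cells. All 169 and all 153 WT cells with an *St14* UMI also had a *Spint2* UMI (100% in both, exact 95% lower limits 97.8% and 97.6%), and 95.9% and 94.8% had a *Spint1* UMI. Of the cells without *St14*, 93.6% and 92.5% had *Spint2* and 73.1% and 77.6% had *Spint1*. Cells with an *F2rl1* UMI carried *St14* in 78.4% and 85.1% and *Prss8* in 89.7% and 89.4%, compared with 59.5% and 57.9%, and 71.8% and 65.1%, of the cells without *F2rl1*. Deeper cells have more of every gene detected, and these shares were not corrected for that. In *Grhl3*-null libraries, *F2rl1* cells carried *St14* in 70.7% and 62.9% and *Prss8* in 71.7% and 67.0%, compared with 51.8% and 48.8%, and 67.1% and 60.5%, of the cells without *F2rl1*. The intervals here and above cover counting error only.

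*F2rl1* was higher in cells with more *Grhl3* UMIs. In WT surface ectoderm/border-like cells without a *Grhl3* UMI it was at 8.99 and 13.9 CPM, in cells with 1 *Grhl3* UMI at 13.1 and 15.3 CPM, and in cells with 2 or more at 46.7 and 37.7 CPM, from 85 and 68 cells. The last group lay above the other two in both libraries, 5.19 and 2.72 times the level of the cells with none. *F2rl1* was picked by the study for its correlation with *Grhl3* in these cells, so this is a description and no test was made. *Prss8* was at 48.5 and 39.6 CPM without *Grhl3* and at 64.5 and 63.3 CPM with 2 or more UMIs, and *Spint2* at 166.4 and 177.2 against 217.5 and 209.4 CPM. *Spint1* was at 83.5 and 98.5 against 110.4 and 109.9 CPM. *St14* had no common direction, at 34.0 and 37.4 against 36.3 and 30.1 CPM, and neither had *F2r*, at 38.8 and 44.5 against 37.3 and 44.6 CPM. Cells with 2 or more *Grhl3* UMIs were deeper, with a median of 67401 and 72510 UMIs against 33121 and 30770 UMIs in cells without, and the part of depth was not tested.

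In the surface ectoderm/border-like class, 5 of the 6 genes fell in *Grhl3*-null libraries. *F2rl1* went from 27.0 and 24.5 CPM in WT to 15.1 and 17.03 CPM in *Grhl3*-null, and the genotypes did not overlap. Its log2 fold change was -0.72 ± 0.10 (SE, adjusted p = 1.3e-04, edgeR, n = 2 libraries per genotype), or 0.606 times WT. *Prss8* fell from 57.7 and 54.5 to 36.2 and 35.7 CPM (log2 fold change -0.68 ± 0.07, adjusted p = 3.7e-06, edgeR). Among the 12584 genes tested in this class 14.4% passed at an adjusted p under 0.05 and 8.37% passed and were lower.

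*St14*, the second protease, fell from 34.5 and 32.3 to 26.3 and 26.6 CPM (-0.37 ± 0.08, adjusted p = 0.0053, edgeR). Of the inhibitors, *Spint1* went from 97.6 and 100.5 to 78.5 and 87.8 CPM (-0.29 ± 0.06, adjusted p = 0.0027), and *Spint2* from 190.8 and 192.7 to 148.3 and 150.4 CPM (-0.40 ± 0.05, adjusted p = 3.0e-05, edgeR). For each of these 3 genes the lowest WT library was above the highest *Grhl3*-null library. Genotypes also stood apart for genes that did not pass. *F2r* in the NMP-like class was at 45.0 and 43.5 CPM in WT and 46.1 and 47.5 CPM in *Grhl3*-null (adjusted p = 0.28, edgeR). The share of all genes without overlap was not counted, here or for *F2rl1* above.

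*F2r* was the exception, at 39.3 and 45.4 CPM in WT and 44.5 and 47.4 CPM in *Grhl3*-null, with overlapping ranges (0.08 ± 0.08, adjusted p = 0.54, edgeR). The 95% interval of its log2 fold change ran from -0.07 to 0.23. *Kat8*, which overlaps *Prss8* on the opposite strand, was at 21.1 and 20.2 CPM in WT and at 18.1 and 21.1 CPM in *Grhl3*-null (adjusted p = 0.51, edgeR). Whether counting used strand is not given in the sources used here.

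**Figure D2:**
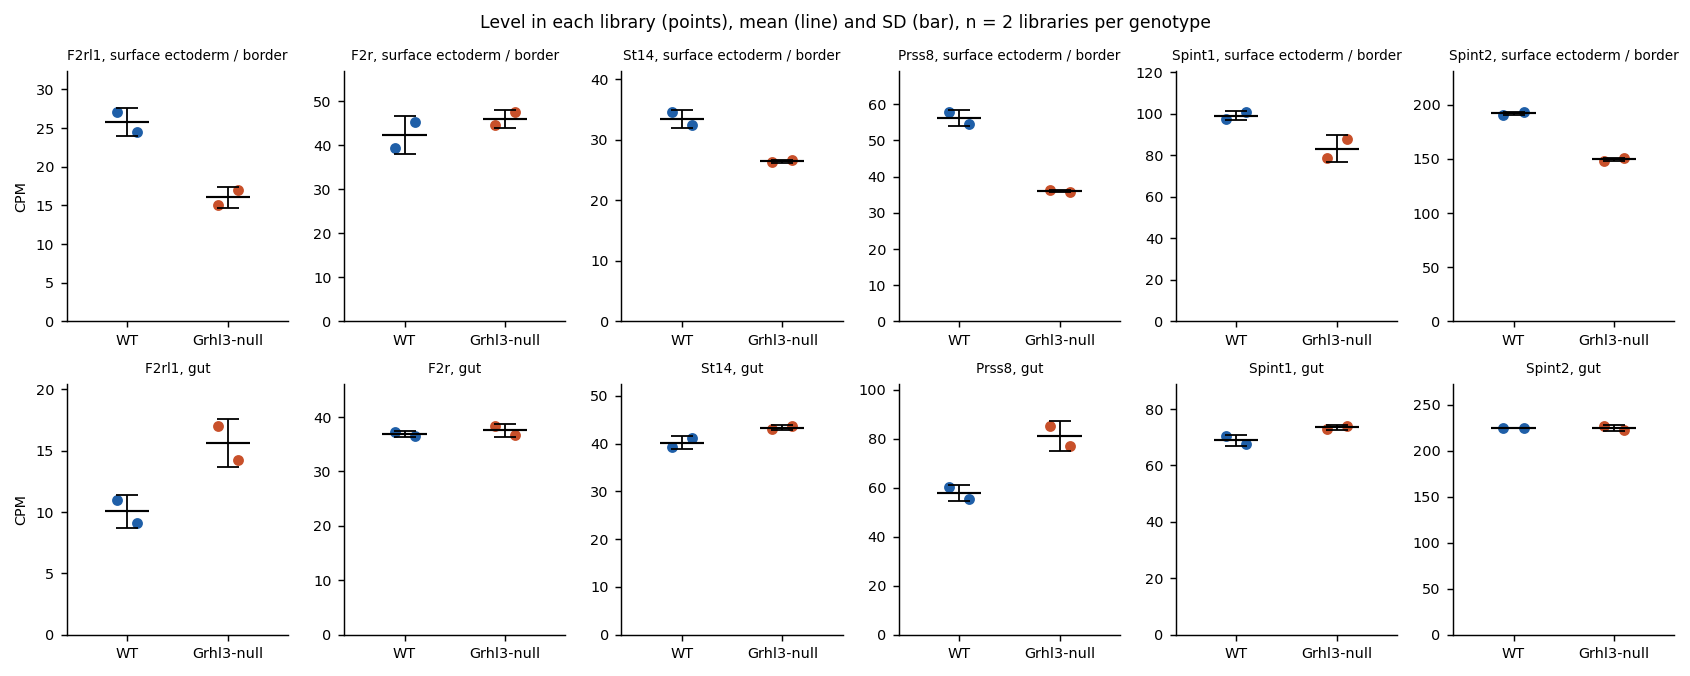
Level of each gene (CPM, y axes) in the surface ectoderm/border-like class (top) and the gut-like class (bottom) by genotype. Points are libraries, horizontal lines means and bars SD over 2 libraries. In the top row *F2rl1* sits at 24.5 to 27.0 CPM in WT and 15.1 to 17.03 CPM in *Grhl3*-null, and in the bottom row at 9.12 to 11.01 and 14.3 to 17.03 CPM.

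The calls of *St14* and *Spint1* were the least secure. *St14* was not called with DESeq2 (log2 fold change -0.37, adjusted p = 0.095), after log-normalised clustering (-0.24, adjusted p = 0.064, edgeR) or without *Grhl3*-null replicate 1 (-0.37, adjusted p = 0.067, edgeR), and *Spint1* was not called without that library (-0.21, adjusted p = 0.086, edgeR). The pools differed in sex. Of the surface ectoderm/border-like cells whose sex could be called, 21.9% and 27.6% were male in WT and 55.9% and 50.8% in *Grhl3*-null. In male cells alone, where 13.6% of genes passed, the same 5 genes were lower, *F2rl1* by a log2 fold change of -1.08 and *St14* of -0.86. In female cells alone, where 15.8% of genes passed, *F2rl1* (-0.49, adjusted p = 0.0075), *Prss8* (-0.87) and *Spint2* (-0.40) passed, while *St14* (-0.14, adjusted p = 0.40, edgeR) and *Spint1* (-0.20, adjusted p = 0.065, edgeR) did not. Whether the sexes differ was not tested.

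The class also differed in *Tfap2c* detection. *Tfap2c*, a transcription factor of the neural plate border, was detected in 59.5% and 60.9% of its WT cells and in 42.4% and 46.5% of its *Grhl3*-null cells. Whether this reflects fewer such cells or less *Tfap2c* RNA per cell was not tested. Of 12 neural plate border genes tested, 2 fell and 3 rose. The summed level of the border list was 783.4 and 827.0 CPM in WT and 831.2 and 878.0 CPM in *Grhl3*-null. Among cells with a *Tfap2c* UMI, *F2rl1* was at 32.2 and 29.8 CPM in WT and at 17.8 and 21.2 CPM in *Grhl3*-null, and *Prss8* at 63.2 and 62.3 against 37.6 and 36.5 CPM. All 5 genes passed in these cells, where 14.2% of genes did, with log2 fold changes from -0.43 (*Spint1*) to -0.80 (*Prss8*). Among cells without one, *F2rl1* was at 13.8 and 10.4 CPM in WT and at 12.4 and 12.1 CPM in *Grhl3*-null.

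None of the 6 genes passed in the cells without a *Tfap2c* UMI, where 4.05% of genes did (edgeR, log2 fold changes from -0.26 for *Spint2*, adjusted p = 0.052, to -0.02 for *F2rl1*). The difference between both kinds of cell, tested as a term of its own after these values were seen, did not pass for any of the 6 genes. It was -0.62 ± 0.15 for *Prss8* (adjusted p = 0.098, edgeR) and -0.70 ± 0.22 for *F2rl1* (adjusted p = 0.32, edgeR), and 0.326% of genes passed. Cells with a *Tfap2c* UMI were deeper than cells without one. In WT libraries their median depth was 60992 and 58298 UMIs against 32126 and 29322 UMIs without, and in *Grhl3*-null libraries 51636 and 40743 against 36846 and 34990 UMIs. The part of depth was not tested. Fewer cells of a kind and less RNA per cell cannot be told apart in the summed counts of the whole class.

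**Figure D3:**
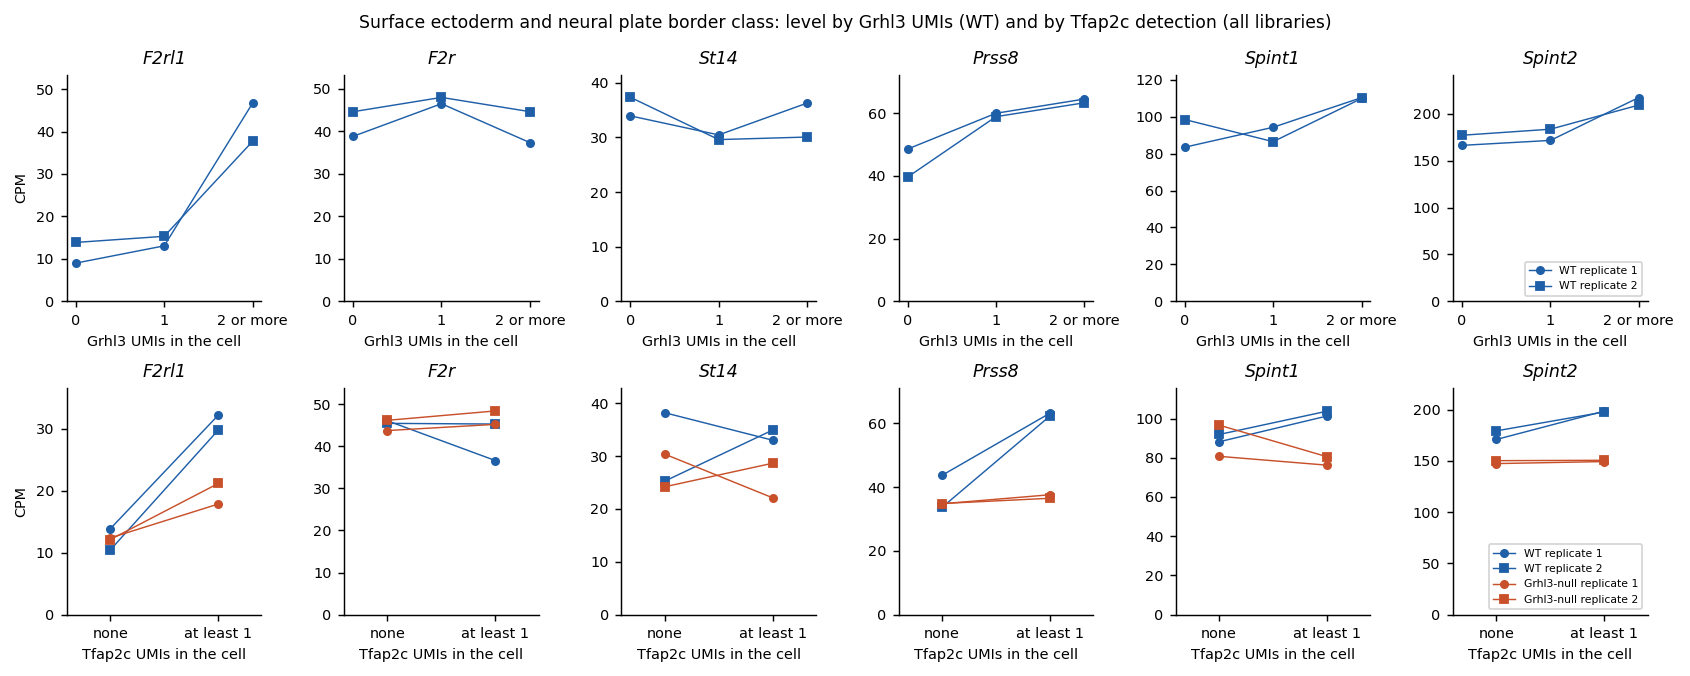
Levels (CPM, y axes) inside the surface ectoderm/border-like class. The top row plots the 2 WT libraries by *Grhl3* UMIs per cell and the bottom row all 4 libraries by *Tfap2c* detection. *F2rl1* rises to 46.7 and 37.7 CPM in WT cells with 2 or more *Grhl3* UMIs. The genotypes stand apart for every gene except *F2r* in cells with a *Tfap2c* UMI.

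Other genes of the pathway were read from lists of related genes in the same fit, in which 14.4% of all genes passed and 8.37% passed and were lower. The remaining receptor genes *F2rl2* and *F2rl3* were too low to test, and *F2rl2* had no UMI in the class. Of 20 transmembrane and anchored serine proteases, 7 were tested, with a median log2 fold change of -0.68 against 0.002 over all genes tested. This median is the value of *Prss8* itself. Of the 7, 5 fell and none rose. Beside *St14* and *Prss8* these were *Tmprss2*, from 11.8 and 12.2 to 5.27 and 7.10 CPM, *Tmprss13*, from 4.34 and 3.86 to 0.659 and 0.418 CPM (-2.92), and *Prss22*, from 4.11 and 4.10 to 1.68 and 1.75 CPM (-1.29). *Hpn*, which encodes hepsin, was at 6.01 and 6.76 CPM in WT and 5.86 and 7.01 CPM in *Grhl3*-null and did not pass. The protease, receptor and inhibitor lists also hold the genes this account is about, so their counts and medians are not separate evidence.

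Of 15 protease inhibitors, 7 were tested, 3 fell and 1 rose. *Serpine2*, a serpin that inhibits thrombin, fell by 0.24 on the log2 scale besides *Spint1* and *Spint2*. *Spink1*, a pancreatic-type trypsin inhibitor, rose from 0.761 and 0.965 to 4.90 and 2.09 CPM (2.00), and it was far higher in the gut-like class. Among 17 soluble proteases and cofactors that can act on the receptors, 5 were tested, and *Plat* (tissue plasminogen activator) rose by 0.98 while *Proc* (protein C) fell by 2.36 on the log2 scale. *F2*, which encodes prothrombin, had no UMI in the class in any library, and *F3*, which encodes tissue factor, was at 8.76 and 9.89 CPM in WT and 10.0 and 12.1 CPM in *Grhl3*-null without passing.

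Of 16 known targets of matriptase and prostasin, 10 were tested, 5 fell and none rose, with a median of -0.40. *Cldn4*, which encodes a tight-junction claudin, fell from 45.5 and 42.4 to 15.7 and 16.6 CPM (-1.48). *Cldn7* (-0.62) and *Epcam* (-0.42), whose product matriptase cuts, also fell. Downstream of the receptors, 22 G protein and signalling genes were all tested, and 4 fell and none rose, with a median of -0.05, beside the 14.4% of all genes that passed. They were *Arrb2* (-0.73), which encodes a beta-arrestin, the Rac activator *Tiam1* (-0.33), *Gna12* (-0.29) and *Gnas* (-0.18). The other 18, among them *Gnaq*, *Gnai2*, *Rac1* and *Rhoa*, did not pass.

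Marker lists of other kinds also moved in the class. Of 16 epithelial genes, 13 fell and 1 rose, and their summed level went from 2839 to 2861 CPM in WT to 2060 to 2276 CPM in *Grhl3*-null. Of 12 surface ectoderm genes, 4 fell and 1 rose, at summed levels of 1718 to 1834 and 1673 to 1721 CPM. Of 12 neural plate border genes tested, 2 fell and 3 rose, at 783.4 to 827.0 and 831.2 to 878.0 CPM. Of 9 genes induced by dissociation, 5 fell and 1 rose, at 232.3 to 244.0 and 199.9 to 202.2 CPM. Of 8 visceral endoderm genes, a list written after some of its members were seen to differ, 4 were tested, 3 rose and none fell, and their summed level went from 3.65 and 4.99 CPM in WT to 11.7 and 10.4 CPM in *Grhl3*-null. *Spink1* rose beside them. None of the listed epithelial, surface ectoderm, border or visceral endoderm genes was at 0. The part of these shifts in the results for the 6 genes was not tested.

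In the gut-like class the direction turned for the receptor and one protease. *F2rl1* rose from 11.01 and 9.12 to 17.03 and 14.3 CPM (0.59 ± 0.12, adjusted p = 0.0013, edgeR), and *Prss8* from 60.3 and 55.5 to 85.3 and 76.9 CPM (0.45 ± 0.06, adjusted p = 1.6e-05, edgeR). Neither gene's genotypes overlapped, and neither did those of *St14* and *Spint1*, which did not pass. *St14* was at 39.2 and 41.1 CPM in WT and at 43.0 and 43.7 CPM in *Grhl3*-null, *Spint1* at 70.3 and 67.5 against 72.9 and 74.1 CPM and *Spint2* at 224.3 and 224.6 against 227.1 and 222.6 CPM. None of these 3 passed, nor did *F2r*. In this class 20.1% of the genes passed. The pools differed in sex here as well. WT libraries had 82 and 61 male and 151 and 148 female gut-like cells, and *Grhl3*-null libraries 216 and 209 male and 135 and 116 female. The call of *F2rl1* was lost without *Grhl3*-null replicate 1 (0.46, adjusted p = 0.053), in male cells (0.45, adjusted p = 0.078) and in female cells (0.47, adjusted p = 0.17, edgeR).

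The difference between both classes was tested in 1 fit. The genotype effect in the surface ectoderm/border-like class minus that in the gut-like class was -1.32 ± 0.16 for *F2rl1* (adjusted p = 1.0e-06) and -1.13 ± 0.08 for *Prss8* (adjusted p = 1.9e-10, edgeR). For *St14* (-0.45 ± 0.10, adjusted p = 0.0032), *Spint2* (-0.36 ± 0.05, adjusted p = 1.2e-05) and *Spint1* (-0.35 ± 0.07, adjusted p = 0.0014, edgeR) it also passed, though with DESeq2 *St14* (adjusted p = 0.49) and *Spint1* (adjusted p = 0.30) were not called. It did not for *F2r* (0.10 ± 0.10, adjusted p = 0.61, edgeR). Of all genes, 13.7% passed.

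The gut-like class held more visceral endoderm signal in *Grhl3*-null libraries. All 8 genes of the visceral endoderm list rose there, and their summed level was 448.3 and 511.5 CPM in WT and 1038.4 and 1017.9 CPM in *Grhl3*-null. *Ttr*, which encodes transthyretin, went from 169.6 and 248.4 to 502.1 and 493.6 CPM. None of the 8 was at 0. Of 16 epithelial genes, 6 rose and none fell in this class. In the larger of the 2 gut-like clusters alone, taken after the data were seen, *F2rl1* (0.60, adjusted p = 0.0039) and *Prss8* (0.46, adjusted p = 1.3e-04, edgeR) rose as much. That cluster held 1204 cells and the other 99. *Ttr*, *Rbp4*, *Apoa1* and *Afp* were among the leading genes of the larger cluster, so this choice does not set the visceral endoderm genes aside. The part of the visceral endoderm genes in these changes was not tested.

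The pathway lists were also read in the gut-like class, where 20.1% of all genes passed. Of 6 transmembrane and anchored serine proteases tested, 2 rose and none fell, *Prss8* and *Tmprss2* (0.24). Of 9 inhibitors 3 rose, among them *Spink1* from 239.9 and 316.4 to 597.4 and 548.5 CPM (1.01), and 1 fell, *Serpine2* (-0.35). Of 9 soluble proteases and cofactors 4 rose and none fell, namely *F10*, which encodes coagulation factor X (1.48), *Plg*, which encodes plasminogen (1.31), *Proc* (0.98) and *Plat* (0.62). Of 9 matriptase and prostasin targets 4 rose and none fell, and of 22 G protein and signalling genes none rose and 1 fell. *Proc* thus rose in the gut-like class and fell in the surface ectoderm/border-like class, a difference that was not tested here.

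**Figure D4:**
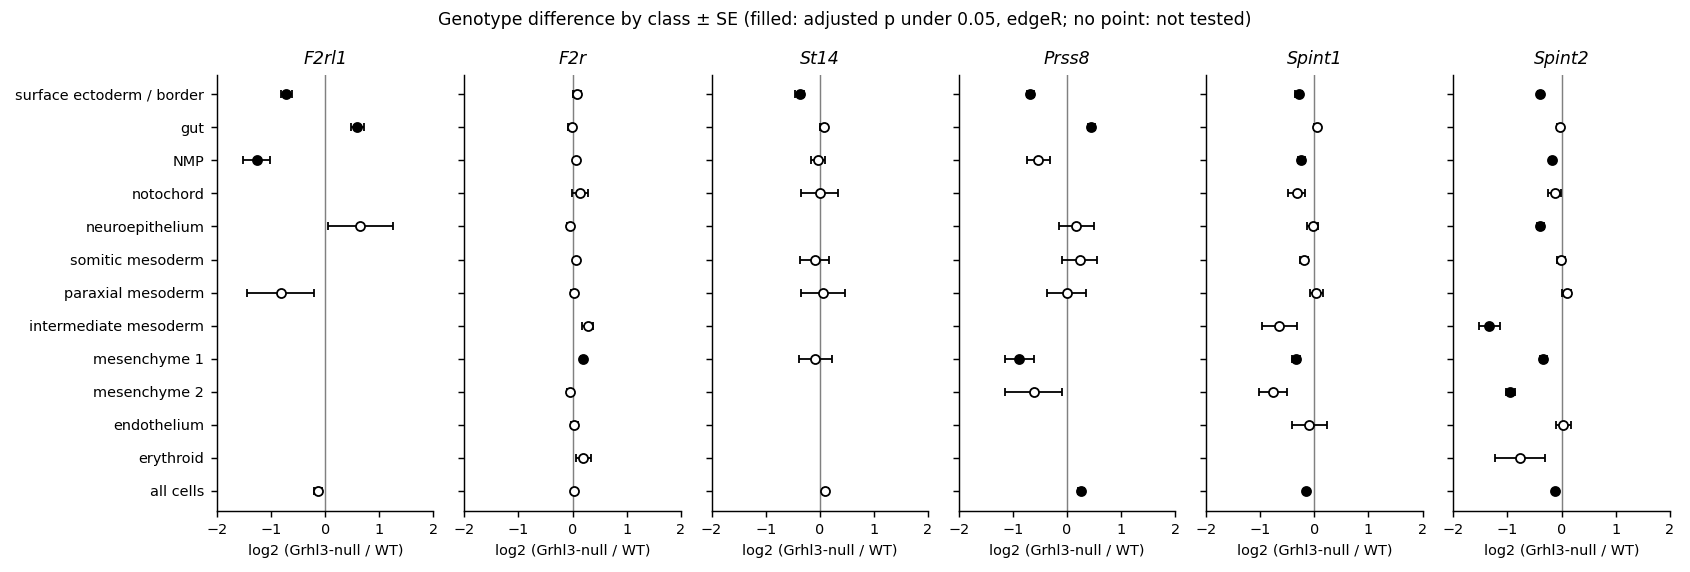
Log2 fold change of *Grhl3*-null against WT (x axes) for each gene by class. Points are the fitted values, bars 1 SE, filled points passed at an adjusted p under 0.05 (edgeR), and a class without a point was not tested for that gene. *F2rl1* is at -0.72 in the surface ectoderm/border-like and at 0.59 in the gut-like class.

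Outside these classes, *F2rl1* also fell in the NMP-like class, from 2.46 and 3.11 to 0.81 and 1.58 CPM (-1.27 ± 0.25, adjusted p = 0.0062, edgeR), on 206 WT and 74 *Grhl3*-null UMIs. In male cells alone this was -0.10 (adjusted p = 0.94, edgeR). *Grhl3* was at 5.84 and 7.06 CPM in the WT cells of that class, its highest mean after the surface ectoderm/border-like and primordial germ cell-like classes. *Spint1* (-0.24) and *Spint2* (-0.18) fell there too, where 17.7% of genes passed, and both calls were lost with DESeq2 (adjusted p = 0.13 and 0.14) and without *Grhl3*-null replicate 1 (adjusted p = 0.082 and 0.12, edgeR). *Spint2* was also not called after log-normalised clustering or in male cells, where *Spint1* was at 0.01. Without WT replicate 2 *Spint1* (adjusted p = 0.10), and without WT replicate 1 *Spint2* (adjusted p = 0.10, edgeR), was lost as well.

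*Spint2* fell in 4 mesodermal or neural classes. In the intermediate mesoderm-like class it went from 32.4 and 22.8 to 10.8 and 10.6 CPM (-1.34 ± 0.19), where 3.47% of genes passed. In the Mesenchyme 2-like class it went from 29.6 and 31.7 to 16.2 and 15.7 CPM (-0.95 ± 0.08), where 19.8% did. In the neuroepithelium-like class it went from 27.5 and 26.5 to 19.5 and 22.4 CPM (-0.39 ± 0.07), where 21.1% did, and in the Mesenchyme 1-like class from 21.6 and 24.7 to 18.2 and 18.4 CPM (-0.33 ± 0.06), where 11.9% did.

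Some of these directions rested on how cells were taken. In female cells alone the neuroepithelium-like difference was 0.21, at clustering resolution 0.8 it was -0.09 and after log-normalised clustering -0.14, while in male cells the intermediate mesoderm-like difference was 1.36, none of them called. The last value rests on 15 and 19 WT cells. The pools differed in sex in these classes. Male and female cells were 55 and 345, and 61 and 346, in the Mesenchyme 2-like WT libraries. In *Grhl3*-null libraries they were 241 and 86, and 252 and 102. In the neuroepithelium-like class they were 62 and 419, and 69 and 369, in WT and 415 and 78, and 468 and 78, in *Grhl3*-null. The intermediate mesoderm-like class shifted the same way. The Mesenchyme 1-like class differed less. In the Mesenchyme 1-like class *Spint1* (-0.34) and *Prss8* (-0.89, from 74 to 51 UMIs) fell and *F2r* rose, from 39.0 and 42.1 to 45.5 and 47.0 CPM (0.19 ± 0.04, adjusted p = 0.0063, edgeR). At clustering resolution 0.8 none of the 4 genes passed there, and *F2r* was at -0.03, but the class of that name then held only 65 and 45 WT and 168 and 151 *Grhl3*-null cells in place of 775 and 702, and 1008 and 924. The *Prss8* call was also lost without WT replicate 1 (adjusted p = 0.21), WT replicate 2 (adjusted p = 0.066) or *Grhl3*-null replicate 1 (adjusted p = 0.25, edgeR).

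No gene of the 6 passed in the endothelium-like class (3 tested), the erythroid-like class (2), the notochord-like class (4), the somitic-like class (5) or the paraxial mesoderm-like class (6), where 0.656%, 0.443%, 3.53%, 13.3% and 21.6% of all genes passed in edgeR. In the endothelium-like class, where it is highest, *F2r* was at 124.1 and 123.3 CPM in WT and 131.7 and 123.7 CPM in *Grhl3*-null (0.03 ± 0.07, adjusted p = 0.90, edgeR). Summed over all filtered cells, 35.5% of genes passed, and *F2rl1* was at 2.91 and 2.67 against 2.55 and 2.64 CPM (-0.14 ± 0.07, adjusted p = 0.17, edgeR). *Prss8* was higher in *Grhl3*-null over all cells (0.26) and *Spint1* (-0.16) and *Spint2* (-0.11) lower. In female cells alone these inhibitors were at 0.12 (adjusted p = 0.027, edgeR) and 0.04, and *Prss8* was not called at a mitochondrial limit of 5% (0.15, adjusted p = 0.15, edgeR). The gut-like class held 277 and 242 WT but 400 and 384 *Grhl3*-null cells.

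Across the 14 classes in WT, the genes with the most similar pattern were ranked among the 11595 genes with at least 5 CPM in a class, by Pearson's r of log2(CPM + 1). These r describe 14 points that share libraries and depth. *F2rl1* was most like the claudin genes *Cldn6* (0.947) and *Cldn3* (0.946) and *Lad1* (0.942), and its r with *Prss8* was 0.918 and with *St14* 0.917. *St14* was most like *Esrp1* (0.984), an epithelial splicing factor, *Cdcp1* (0.982) and *Epcam* (0.976). *Prss8* was most like *Grhl2* (0.986), a relative of *Grhl3*, *Cldn4* (0.980) and *Arhgef19* (0.978). *Spint1* was led by *Dcxr* (0.936), *Cep170b* (0.933) and *Pgr* (0.930), and *Spint2* by *Slc44a1* (0.963), *Lmo7* (0.949) and *Camsap3* (0.945). *F2r* stood apart with *Naa20* (0.965), *Actr2* (0.951) and *Elk4* (0.940), and its r with the other 5 genes lay between -0.455 and 0.075. The r of *F2r* rest mainly on the endothelium-like class (mean 123.7 CPM) and the primordial germ cell-like class (10.1 CPM, from 10 UMIs). Its means in the remaining classes lay between 34.9 and 48.9 CPM.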

How the data were processed

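UMI counts per gene and cell, deposited by the authors for droplets called as cells, were used from 2 WT and 2 *Grhl3*-null libraries. Per the labels and the file headers they came from Cell Ranger 3.0.0 and mm10. Cells had been dissociated with trypsin, and 2 reactions were run per pool. All count columns were matched to a sample.

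Cells were kept from 3000 genes and 7500 UMIs upward if mitochondrial UMIs did not exceed 7%, and were clustered with Seurat 5.3.0 and sctransform 0.4.2 (3000 variable features, the 6 genes among them, 30 components, 20 neighbours, resolution 0.4, no integration). Clusters were named from the 15 markers that the study gives for each of its 16 cell types. These were sought among the 30 leading genes (5 CPM added), where 3 or more were found and the next type had fewer by a factor above 1.5. Names can differ from those of the study. Doublets were kept, and the top 5% of Scrublet scores (scanpy 1.11.5) were removed in an alternative. Counts were summed per class and library and tested with edgeR 4.0.16 (TMM, filterByExpr, quasi-likelihood test) in R 4.3.3, with Benjamini-Hochberg adjustment over all genes tested and a threshold of 0.05. The difference between classes had the library as a block. SE is the log2 fold change divided by the square root of the F statistic. The procedure was tested on simulated data without any difference between pools, with 200 of 12584 genes changed. It recovered 93% of the smaller and 100% of the larger changes, with 11 wrong calls. Changes as small as those of the 6 genes in the surface ectoderm/border-like class were not simulated. Shares have exact 95% Clopper-Pearson intervals, and a share of 0 allows 3 counts. Levels are compared within a gene only.

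The genes described, the lists and the classes compared were chosen with earlier results of these data known. From each pathway list, genes that passed in the surface ectoderm/border-like class were named, at most 4 for each list, with a few others named after their values were seen. Marker, epithelial and dissociation lists are given as counts and summed levels. One gene that this rule names is not reported here. Libraries with the same replicate number did not deviate together. The libraries of a genotype were counted separately. A chi-square test over genes in the surface ectoderm/border-like class gave 2.24 (WT) and 2.59 (*Grhl3*-null) for each degree of freedom. Differences among the cells of a pool can also raise this value, so it does not make the libraries independent samples. Protein sequences were not used here.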

Additional observations from a re-analysis of the deposited data

Results flagged for a closer look

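The genotype effect differed between the surface ectoderm/border-like and the gut-like class for 5 of the 6 genes, by a test of the difference itself (edgeR, adjusted over all genes), which 13.7% of all genes passed. With DESeq2 *St14* (adjusted p = 0.49) and *Spint1* (adjusted p = 0.30) were not called, which leaves 3. The difference in log2 fold change, surface ectoderm/border-like minus gut-like, was -1.32 for *F2rl1* and -1.13 for *Prss8*, which fell in the first class and rose in the second. It was -0.45 for *St14*, -0.36 for *Spint2* and -0.35 for *Spint1*, which fell in the first class and did not pass in the second. With 2 libraries per genotype no library could be checked as standing apart within its group.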

How the results depend on the processing

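In the surface ectoderm/border-like class, *F2rl1*, *Prss8* and *Spint2* kept their direction and call under all alternatives but 1, the cells without a *Tfap2c* UMI. There the log2 fold changes were -0.021 for *F2rl1*, -0.18 for *Prss8*, -0.26 for *Spint2*, -0.24 for *St14*, -0.0558 for *Spint1* and -0.0569 for *F2r*, 0 of the 6 genes passed (edgeR), and 448 genes passed in place of 1818. *St14* was not called with DESeq2 (-0.37), log-normalised clustering (-0.24) or female cells (-0.14), nor *Spint1* with female cells (-0.20), which left 3 genes. With 1 library left out, *St14* lay between -0.41 and -0.33, *Spint1* between -0.36 and -0.21 and *F2r* between -0.0232 and 0.19, 3 to 5 of the 6 genes passed, and 750 to 1367 of all genes passed. The lone library left in a genotype is then assumed to vary like the others. *F2r*, never called, was at -0.0381 in male cells. DESeq2 called 676 genes in this class. Outside the class, 12 of 49 tested pairs of a gene and a class passed, where 0.443% to 21.6% of all genes did by class. With DESeq2 7 pairs passed, where 29 to 1217 genes did by class, and in male cells 5, where 14 to 2113 did. Between classes DESeq2 called neither *St14* (-0.46) nor *Spint1* (-0.36). Of called values, *Spint1* in NMP-like cells was at 0.0101 and *Spint2* in intermediate mesoderm-like cells at 1.36 in male cells (15 and 19 in WT), *F2r* in Mesenchyme 1-like cells at -0.0345 at resolution 0.8 (a far smaller class), and in female cells *Spint2* was at 0.21 in the neuroepithelium-like class, and over all cells *Spint1* was at 0.12 and *Spint2* at 0.0417. With the replicate number as a block, 2269 genes and 5 of the 6 passed in the surface ectoderm/border-like class, *F2rl1* at -0.72. Outside it 14 of the 49 pairs passed, where 24 to 3805 genes did by class. Same-numbered libraries correlated at 0.0015 in their deviations, so the numbers do not pair them. With the replicate block no call of the 6 genes was lost. The cause of these changes was not tested. Depth limits the genes with few UMIs, such as *F2rl1* outside the surface ectoderm/border-like, gut-like and NMP-like classes.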
